A study of Homo sapiens with 6 samples.

Results

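The aminoacyl-tRNA synthetases are the 35 genes listed here that encode the enzymes joining an amino acid to its transfer RNA, 19 acting in the cytosol and 16 named for mitochondria (symbols ending in 2). Their introns were taken from the deposited intron tables by position: 588 listed introns lay inside a member gene on its strand, and 586 of them, in 34 of the 35 genes, reached an average of 20 reads per library, out of 134078 such introns in the whole series. MARS2 had no listed intron and was not measured. Of the 586 introns, 376 belonged to the cytosolic and 210 to the mitochondrial enzymes, and a gene held between 1 and 35 of them. In 546 cases the intron did not overlap another one chosen for the same gene (a separate intron).

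The RNA came from K562, a human leukaemia cell line with erythroid and megakaryocytic features, grown in RPMI-1640 with serum and transduced with a control shRNA (labelled Con_sh), a first shRNA against ZRSR2 (sh1) or a second one (sh2). Each group was sequenced in experiment 1 and experiment 2, which gave 6 libraries of polyA-selected RNA. ZRSR2 is a protein of the minor spliceosome, the machinery that removes the rare U12-type introns, and it takes part in recognising their 3′ ends. Whether libraries of a group were separate cultures is not in the labels, so the p-values measure only the spread between these samples, which may be technical.

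Spliced reads summed over introns ranged from 82986327 to 101120454 per library and boundary reads from 4387311 to 5199693. ZRSR2 itself stood at 27.9 and 23.7 spliced CPM (reads scaled to the library totals) in the control, 10.8 and 10.7 with sh1 and 10.3 and 12.6 with sh2, with no overlap between control and knockdown. Its log2 fold change over both shRNAs was -1.22 (SE 0.169), with an adjusted p of 0.485 by edgeR's quasi-likelihood test and 3.3e-07 by DESeq2. All 13 of 13 K562 markers were measured, and their summed level was 5651 and 8277 CPM in the control, 14979 and 7347 with sh1 and 25952 and 11090 with sh2. Of 10 markers of other cell types 7 were measured, at a summed 937 and 544 CPM in the control, 684 and 662 with sh1 and 368 and 535 with sh2, while MS4A1, CD14 and COL1A2 did not reach the minimum. The K562 sum came mainly from globin genes, with HBG2 alone at 5852 CPM in the sh2 library of experiment 1. TFRC, BCR and ABL1 had log2 fold changes of -0.13, -0.14 and -0.052, and the other K562 markers had positive ones. KRT8 held 696 and 340 CPM of the other sum in the control. In these bulk samples fewer cells of a type and less RNA per cell cannot be told apart. The part of these marker shifts in the results below was not tested.

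As background, a synthetase recognises an amino acid and its transfer RNAs and spends ATP to couple them (EPRS1 joins the enzymes for glutamate and for proline in a single protein), and the charged transfer RNAs then feed the ribosome. Animal cells keep a cytosolic and a mitochondrial set, encoded in the nucleus, and a few genes such as GARS1 (glycine) and KARS1 (lysine) supply both compartments. HARS1 and HARS2 charge histidine transfer RNA in the cytosol and in mitochondria, and the pair lies head to head on chromosome 5. Many cytosolic synthetase genes are known targets of ATF4, the transcription factor of the amino-acid response.

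The start sites of HARS1 (on the minus strand) and HARS2 (on the plus strand) were 84 nt apart in RefSeq's GRCh38 table, at chromosome 5 positions 140691370 and 140691455. The stretch between them is shown because the retained introns described below fall in both genes that it separates. It is the plus strand of chr5:140691371-140691454, and 59.5% of its letters were G or C.

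HARS1-HARS2: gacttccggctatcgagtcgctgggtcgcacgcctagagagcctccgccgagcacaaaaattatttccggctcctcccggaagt

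Of the 586 introns of the synthetase genes, 5 became more retained after ZRSR2 knockdown and 0 became less retained. They were 3 neighbouring introns of HARS1, 1 intron of HARS2 and 1 intron of GARS1. Retention here is the percentage that boundary reads make up of the boundary reads plus the doubled spliced reads, and an intron was called where boundary against spliced reads changed at an adjusted p under 0.05 by edgeR's quasi-likelihood test over all introns. The 5 calls were 0.853% of the members' introns, beside 0.33% of all tested introns called more retained and 0.0209% called less retained. They lay in 3 of 34 genes (8.82%), beside 2.36% of all genes with a tested intron that held at least 1 more retained intron. This share of genes also depends on the introns tested per gene, and it was not adjusted for them. The 34 members held 586 introns, and the 14076 genes at most 134078. The members had been chosen with earlier results of these data known. The count fell to 3 without the sh1 library of experiment 1 and to 3 without the sh2 library of experiment 1. With the experiment number as a block in the fit, 7 were called, all more retained, beside 0.497% of all introns called in either direction; the additional ones were intron 5 of HARS2 and intron 7 of YARS1 (chr1:32786448-32786939; log2 fold change 0.97, edgeR adjusted p of 0.029 with the block and 0.48 without). At an unadjusted p under 0.05, 32 member introns were higher (5.46%, beside 2.78% of all introns) and 12 lower (2.05%, beside 1.66%). Retention in all 4 knockdown libraries exceeded both controls for 60 member introns (10.2%), beside 7.28% of all introns. Both controls exceeded all 4 knockdown libraries for 25 member introns (4.27%), and the share over all introns was not computed for this direction. The median log2 fold change of the 586 introns was 0.12 and that of all tested introns 0.084.

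The most changed intron was the eleventh of 16 separate introns of GARS1, at chr7:30621501-30622316 (816 nt, plus strand, between exons of 108 and 146 nt). Retention was 1.22% and 1.16% in the control libraries, 27.9% and 11.9% with sh1 and 6.02% and 5.76% with sh2. Both sh1 libraries were highest, both sh2 libraries lay between them and the control, and no groups overlapped. The group means were 1.19% ± 0.0437 (SD, n = 2) in the control, 19.9% ± 11.3 with sh1 and 5.89% ± 0.181 with sh2. Taking both shRNAs against control, the log2 ratio of boundary to spliced reads rose by 3.32 (SE 0.366), with an adjusted p of 8.2e-16 by edgeR's quasi-likelihood test. Reads covered the whole length of this intron in every library.

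In HARS1 the 3 called introns followed one another, with the highest change in the middle. The fourth of 12 separate introns (chr5:140679128-140679787, 660 nt, minus strand) had a retention of 1.70% and 2.19% in the control, 14.9% and 7.86% with sh1 and 15.2% and 7.78% with sh2. Every knockdown library exceeded both controls, and within each shRNA the library of experiment 1 was the higher. The means were 1.94% ± 0.352 (SD, n = 2), 11.4% ± 4.97 and 11.5% ± 5.27, and the log2 fold change was 2.64 (SE 0.373; edgeR adjusted p of 2.3e-09).

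The intron before it (chr5:140679884-140683099, 3216 nt) stood at 1.3% and 0.891% in the control, 5.47% and 2.79% with sh1 and 5.29% and 2.79% with sh2. Its log2 fold change was 1.89 (SE 0.401; edgeR adjusted p of 0.0011), and the call was lost in 5 of 11 alternatives: without the control library of experiment 2, the sh1 library of experiment 1 or the sh2 library of experiment 1 (adjusted p of 0.41, 0.0502 and 0.0701), when the fit took introns that reads covered over 0.95 or more of their length (0.089), and on the smaller boundary count doubled (1). The intron after it (chr5:140678016-140679001, 986 nt) was already partly retained in the control, at 7.15% and 8.86%, and reached 23.8% and 14.6% with sh1 and 20.6% and 15.4% with sh2. Its log2 fold change was 1.37 (SE 0.354; edgeR adjusted p of 0.032), and this call was lost in 7 of 11 alternatives, among them without either control library, without the sh1 library of experiment 1 and without the sh2 library of experiment 1 (adjusted p of 0.78, 0.28, 0.43 and 0.32).

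In HARS2 the called intron was the fourth of 12 separate introns (chr5:140694281-140695507, 1227 nt, plus strand). Retention was 4.34% and 4.98% in the control, 36.8% and 11.5% with sh1 and 28.2% and 14.5% with sh2. All knockdown libraries lay above the control, and those of experiment 1 were higher than those of experiment 2. The means were 4.66% ± 0.453 (SD, n = 2), 24.1% ± 17.9 and 21.4% ± 9.72, and the log2 fold change was 2.46 (SE 0.466; edgeR adjusted p of 8.0e-05). This call was lost in the fit to introns covered over 0.95 or more of their length (adjusted p of 0.11) and on the smaller boundary count doubled (1). The next intron (chr5:140695634-140695737, 104 nt) had 1.95% and 1.27% in the control, 5.96% and 4.93% with sh1 and 5.64% and 4.75% with sh2. The groups did not overlap there, but the log2 fold change of 1.78 (SE 0.495) did not pass the test (edgeR adjusted p of 0.082). With the experiment number as a block it was 1.79 and passed (edgeR adjusted p of 0.0058), as it did for sh1 alone (0.026).

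**Figure D1:**
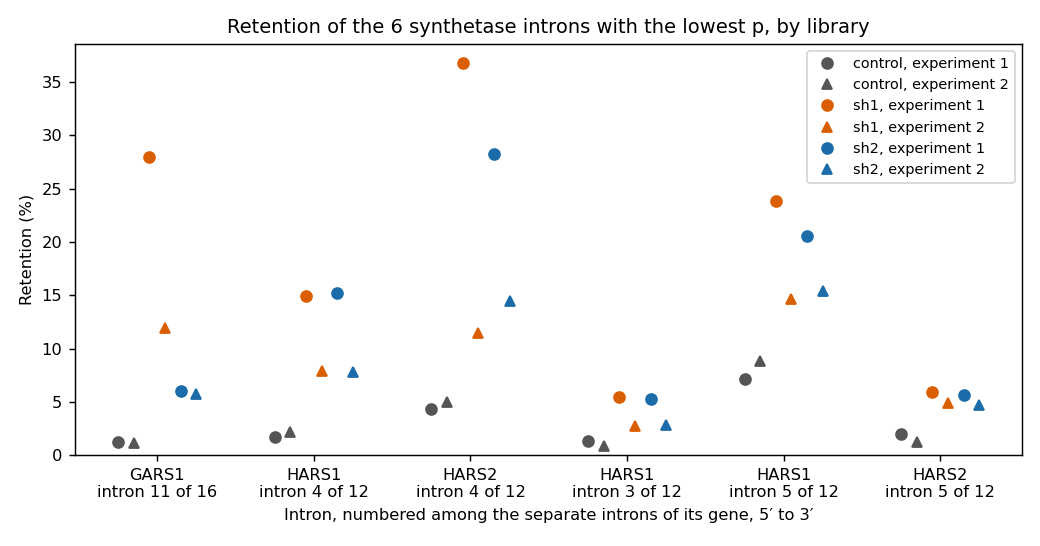
Retention (vertical axis, percent) of the 6 synthetase introns with the lowest p, in order of p from the left; each point is 1 library, coloured by group and shaped by experiment. The control libraries lie lowest for all 6 introns, and GARS1 intron 11 is the intron where the sh1 libraries (27.9% and 11.9%) stand apart from the sh2 libraries (6.02% and 5.76%).

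The most changed introns of HARS1 and HARS2 held the same place in both genes. Counted from the 3′ end, the 10 exons before the last 10 separate introns had equal lengths in the 2 genes: 147, 117, 243, 128, 94, 99, 108, 126, 96 and 120 nt. In both genes the most changed intron lay between the exons of 96 and 126 nt. The introns themselves differed in length, with 660 nt in HARS1 and 1227 nt in HARS2, and so did the introns after them, with 986 and 104 nt. The intron before them was called in HARS1 (log2 fold change 1.89) and not in HARS2 (0.23, SE 0.502, edgeR adjusted p of 1); the difference between the genes was not tested.

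The other introns of the 3 genes were not called. In GARS1 the other 15 separate introns had a pooled retention (the same percentage, from boundary and spliced reads summed over the introns) of 0.708% and 0.869% in the control, 0.939% and 0.834% with sh1 and 0.985% and 1.07% with sh2. In HARS1 the 9 separate introns that were not called pooled to 1.40% and 1.37% in the control, 2.14% and 1.59% with sh1 and 1.91% and 1.69% with sh2, each knockdown value lying above both controls. In HARS2 the other 11 pooled to 4.93% and 3.05%, 5.77% and 3.54%, and 6.88% and 4.74%, so that control and knockdown overlapped. HARS1 intron 9, of 92 nt, had a log2 fold change of 2.62 from 2 and 0 boundary reads in the control and 2 to 7 in the knockdown libraries, and did not pass (edgeR adjusted p of 0.51); it was picked out after its value was seen.

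**Figure D2:**
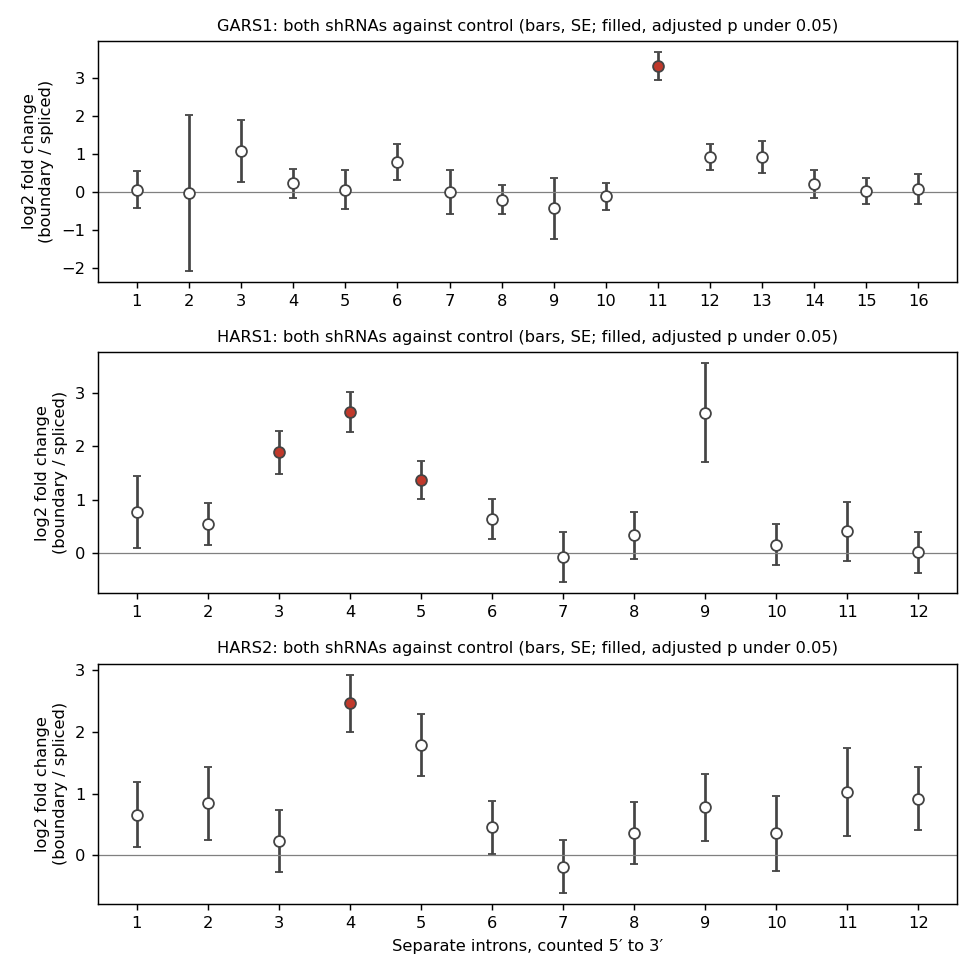
Log2 fold change of boundary relative to spliced reads over both shRNAs (vertical axis) at each separate intron of GARS1, HARS1 and HARS2, counted 5′ to 3′ (horizontal axis); bars are SE and filled points passed an edgeR adjusted p of 0.05. The filled points are intron 11 of GARS1 (3.32), introns 3, 4 and 5 of HARS1 (1.89, 2.64 and 1.37) and intron 4 of HARS2 (2.46).

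The reads at the edges of the introns gave further detail, described here for features chosen after their values were seen. At GARS1 intron 11 both boundaries rose together: the 5′ boundary had 24 and 23 reads in the control, 823 and 263 with sh1 and 156 and 123 with sh2, and the 3′ boundary 11 and 23, 1047 and 293, and 178 and 138. The following intron of GARS1 (chr7:30622463-30626233, 3771 nt) had reads mainly at its 5′ boundary in the control. Its 3′ boundary had 1 and 2 reads in the control, 84 and 34 with sh1 and 101 and 60 with sh2, while its 5′ boundary had 71 and 89, 197 and 132, and 209 and 148. On the sum of both boundaries this intron had a log2 fold change of 0.92 (SE 0.343) and was not called (edgeR adjusted p of 0.67); for sh2 alone, with the experiment block, it passed (log2 fold change 1.12, edgeR adjusted p of 0.048). With the smaller boundary count doubled in place of the sum, the log2 fold change was 4.78 (SE 0.736) and the edgeR adjusted p 7.8e-05.

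In HARS1 the tables also listed a gap that runs over introns 3 to 5 and leaves out the exons of 96 and 126 nt (chr5:140678016-140683099). Spliced reads with a gap of this span or longer numbered 13 and 17 in the control, 80 and 73 with sh1 and 43 and 64 with sh2. They equalled 0.787% and 1.03% of the spliced reads at intron 4 in the control, 9.96% and 5.46% with sh1 and 3.81% and 4.98% with sh2, with no overlap between control and knockdown. The group means were 0.909% ± 0.172 (SD, n = 2), 7.71% ± 3.18 and 4.39% ± 0.828, given with no test. Over the matching exons of HARS2 (chr5:140694055-140695737) such reads numbered 4 and 19 in the control. With sh1 they numbered 17 and 18 and with sh2 18 and 17, so these counts overlapped. As a share of the spliced reads at HARS2 intron 4 they were 0.955% and 4.33% in the control. With sh1 this share was 7.08% and 4.63%, and with sh2 8.33% and 5.70%. Every knockdown library thus lay above both controls on this share, which was not tested.

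**Figure D3:**
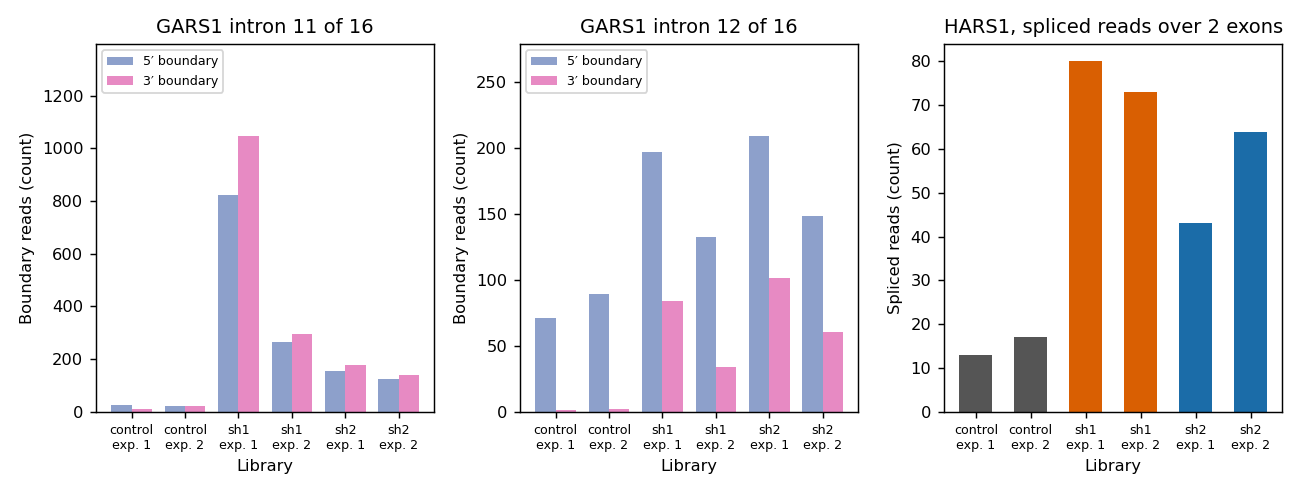
Reads per library (vertical axes, counts) at the 5′ and 3′ boundaries of GARS1 introns 11 and 12, and spliced reads that leave out 2 exons of HARS1; bars are single libraries. The 3′ boundary of GARS1 intron 12 goes from 1 and 2 reads in the control to between 34 and 101, and the HARS1 reads from 13 and 17 to between 43 and 80.

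Taken singly, each shRNA gave 4 calls among the synthetase introns, beside 0.292% of all introns called more retained with sh1 and 0.266% with sh2, and 0 less retained, beside 0.0104% and 0.0201%. Both shRNAs called GARS1 intron 11, HARS1 introns 3 and 4 and HARS2 intron 4. For GARS1 the log2 fold change was 4.26 (SE 0.42, edgeR adjusted p of 7.3e-20) with sh1 and 2.38 (SE 0.411, edgeR adjusted p of 8.3e-06) with sh2. For HARS1 intron 4 it was 2.63 (SE 0.426) and 2.65 (SE 0.426), and for HARS2 intron 4 it was 2.51 (SE 0.539) and 2.41 (SE 0.532). With the experiment block 7 introns were called with sh1 (6 higher and 1 lower, in IARS1) and 6 with sh2, beside 0.423% and 0.443% of all introns called in either direction; HARS1 intron 5 was then called with each shRNA (edgeR adjusted p of 0.0011 and 0.0038). Several of the calls without the block rested on single libraries. With sh1 the count was 2 without the control library of experiment 1 or the sh1 library of experiment 1, and 7 without the sh1 library of experiment 2; HARS1 intron 3 and HARS2 intron 4 also lost their calls without the control library of experiment 2 (edgeR adjusted p of 0.61 and 0.051). With sh2 the count was 2 without the control library of experiment 1 and 1 without the sh2 library of experiment 1, which left GARS1 intron 11; HARS1 intron 3 and HARS2 intron 4 lost their calls without the control library of experiment 2 as well (edgeR adjusted p of 0.72 and 0.091).

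GARS1 intron 11 was the only synthetase intron that differed between the shRNAs, beside 0.0246% of all introns called higher with sh1 and 0.0097% called lower. It was higher with sh1 by 1.88 on the log2 scale (SE 0.388, edgeR adjusted p of 0.008). Without the sh1 library of experiment 1 the difference was 1.12 and the adjusted p 1, and the call was also lost without either sh2 library (adjusted p of 0.16 and 0.18). For HARS1 intron 4 the difference between the shRNAs was -0.017 (SE 0.408) and for HARS2 intron 4 it was 0.10 (SE 0.523). The next lowest p between the shRNAs belonged to intron 3 of KARS1 (chr16:75640350-75641563), whose retention was at most 0.219% in any library, and to intron 7 of HARS1 (chr5:140677421-140677654), at most 1.07%, and neither passed (edgeR adjusted p of 0.13 and 0.53).

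The 6 member introns with the highest retention in the control were all long gaps over other introns: 2 in HARS1, 2 in HARS2, 1 in TARS2 (mitochondrial threonine) and 1 in FARS2 (mitochondrial phenylalanine). Few reads were spliced over them, and their boundary reads are shared with the introns inside. Mean control retention ran from 46.4% ± 15.2 (SD, n = 2) for the FARS2 gap of 107191 nt to 91.9% ± 2.05 for the HARS1 gap at chr5:140678016-140690854. None of the 6 was called in any contrast. Over separate introns, the median retention was 0.738% ± 0.0667 (SD, n = 2) in the control for the cytosolic genes, 0.784% ± 0.0781 with sh1 and 0.92% ± 0.076 with sh2. For the mitochondrial genes it was 1.0% ± 0.175, 1.16% ± 0.172 and 1.24% ± 0.053, and for both sets the control and sh1 ranges overlapped.

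Levels of the genes were compared as the median spliced CPM per separate intron, which does not depend on gene length. In the control the cytosolic genes had a median of 18.4 CPM per junction and the mitochondrial genes 4.45, and 17 of 19 cytosolic genes lay above IARS2, the highest mitochondrial gene at 10.2 ± 1.57 (SD, n = 2). The 4 highest were YARS1 (tyrosine, 54.2 and 35.9 in the control), KARS1 (27.98 and 30.3), SARS1 (serine, 32.6 and 24.7) and WARS1 (tryptophan, 30.5 and 19.8). Apart from YARS1, which exceeded the others in both control libraries, these neighbours overlapped. The 4 lowest were WARS2 (1.81 and 2.0), NARS2 (asparagine; 2.01 and 3.27), PARS2 (proline; 2.93 and 3.26) and CARS2 (cysteine; 2.55 and 3.67), where WARS2 lay below the others in both libraries and the other 3 overlapped. CARS1 (cysteine) was the lowest cytosolic gene, at 4.24 and 4.09, within the range of the mitochondrial genes.

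**Figure D4:**
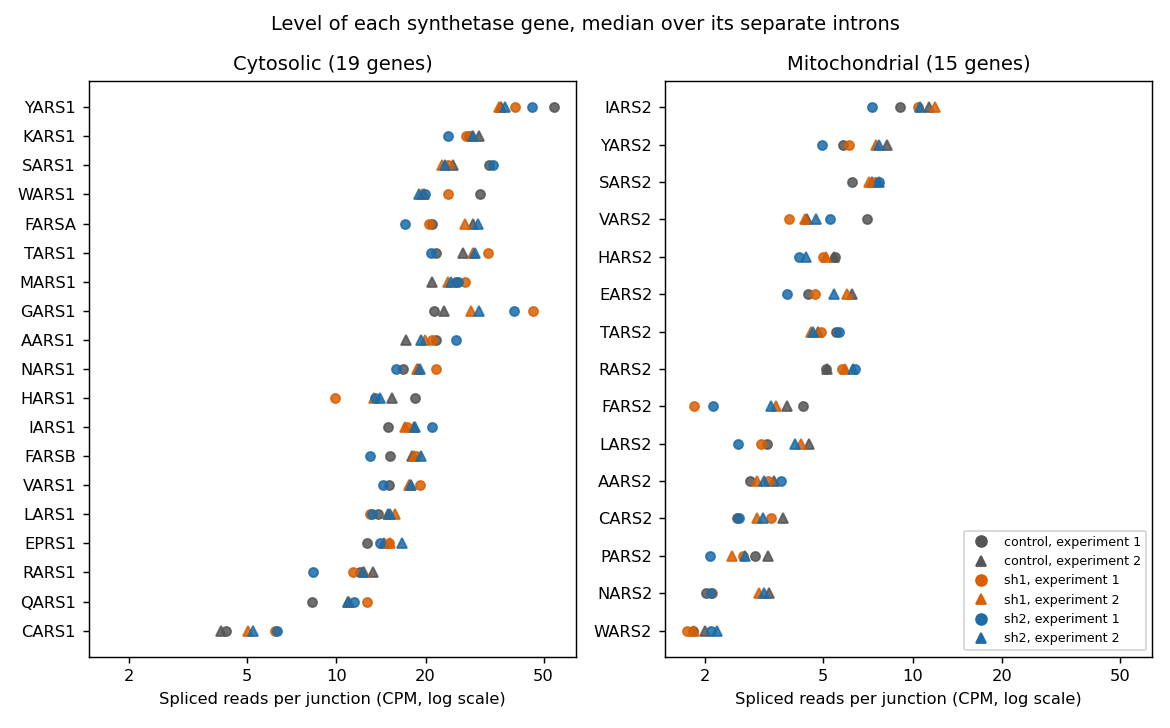
Median spliced CPM per separate intron (horizontal axis, log scale) of the 19 cytosolic and 15 measured mitochondrial synthetase genes; each point is 1 library, coloured by group and shaped by experiment. The cytosolic genes run from CARS1 (control mean 4.17) to YARS1 (45.1) and the mitochondrial genes from WARS2 (1.91) to IARS2 (10.2), and GARS1 is shifted to the right in all 4 knockdown libraries.

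None of the 34 genes changed its summed spliced reads at an edgeR adjusted p of 0.05 over both shRNAs, and 0% of all 13383 genes did; DESeq2 called 0 members, beside 1.43% of all genes. At an unadjusted p under 0.05 the edgeR test had 3 members (8.82%), beside 9.50% of all genes. The 4 knockdown libraries all exceeded both controls for 4 members, beside 10.5% of all genes, and all lay below both for another 4, beside 10.9%. The median log2 fold change was 0.064 over the 19 cytosolic genes (12 positive, 7 negative), -0.076 over the 15 mitochondrial genes (3 positive, 12 negative) and -0.0039 over all genes. The mitochondrial median changed sign without the control library of experiment 2 (0.14) and without the sh2 library of experiment 1 (0.019), and the cytosolic one without the sh2 library of experiment 2 (-0.013).

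GARS1 had the lowest p and the highest fold change of the set. Its sum was 348 and 379.9 CPM in the control, 741 and 461 with sh1 and 648 and 499.8 with sh2, and all knockdown libraries lay above the control. The log2 fold change was 0.69 (SE 0.224), with an adjusted p of 0.485 by edgeR and 0.14 by DESeq2. The difference was seen on both sides of the retained intron: the median spliced level of the 10 introns before it was 1.67 times the control with sh1 and 1.60 times with sh2, that of the 5 introns after it 1.65 and 1.53 times, and that of the retained intron itself 1.37 and 1.52 times.

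HARS1 had the opposite sign. Its sum was 213 and 187 CPM in the control, 119.6 and 163 with sh1 and 162 and 168 with sh2, all knockdown libraries lying below the control, and the log2 fold change was -0.39 (SE 0.156; adjusted p of 0.508 by edgeR and 0.36 by DESeq2). Spliced reads stood at 0.703 and 0.836 times the control before its intron 4, at 0.644 and 0.784 times at it and at 0.674 and 0.782 times after it, with sh1 and sh2 respectively. HARS2 had 63.7 and 62.7 CPM in the control, 61.4 and 61.3 with sh1 and 50.7 and 52.7 with sh2, a log2 fold change of -0.17 (SE 0.12; edgeR adjusted p of 0.66). In HARS2 the retained intron itself had 0.731 and 0.643 times the control's spliced reads, against 0.955 and 0.879 times before it and 1.02 and 0.834 times after it.

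Among the other cytosolic genes the lowest p belonged to CARS1, QARS1 (glutamine) and WARS1. CARS1 had 87.6 and 84.4 CPM in the control, 123 and 98.5 with sh1 and 124 and 104 with sh2, above the control in all 4 libraries, with a log2 fold change of 0.38 (SE 0.149; edgeR adjusted p of 0.496). QARS1 had 178 and 226 CPM, 259.8 and 230.5, and 254 and 223, overlapping the control (log2 fold change 0.26, SE 0.152). WARS1 had 303 and 198 CPM, 236 and 195, and 197 and 187 (log2 fold change -0.30, SE 0.192), and its sign turned without the control library of experiment 1. The other 14 cytosolic genes had log2 fold changes between -0.24 for RARS1 (arginine) and 0.20 for TARS1 (threonine).

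Of the mitochondrial genes, VARS2 (valine) had 197 and 128 CPM in the control, 107 and 116 with sh1 and 149 and 129 with sh2, with overlapping groups (log2 fold change -0.38, SE 0.188). FARS2 had 18.1 and 16.0 CPM, 8.01 and 14.4, and 9.1 and 14.1, with all knockdown libraries below the control (log2 fold change -0.58, SE 0.292). RARS2 (arginine) was at 99.9 and 113 CPM, 119.8 and 117, and 122 and 121, above the control in all 4 (log2 fold change 0.18, SE 0.118), and PARS2, with a single intron, at 2.93 and 3.26, 2.69 and 2.46, and 2.08 and 2.71 (log2 fold change -0.32, SE 0.246). Their edgeR adjusted p ranged upward from 0.55 for VARS2. The other 10 mitochondrial genes had log2 fold changes between -0.13 for LARS2 (leucine) and 0.13 for AARS2 (alanine).

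**Figure D5:**
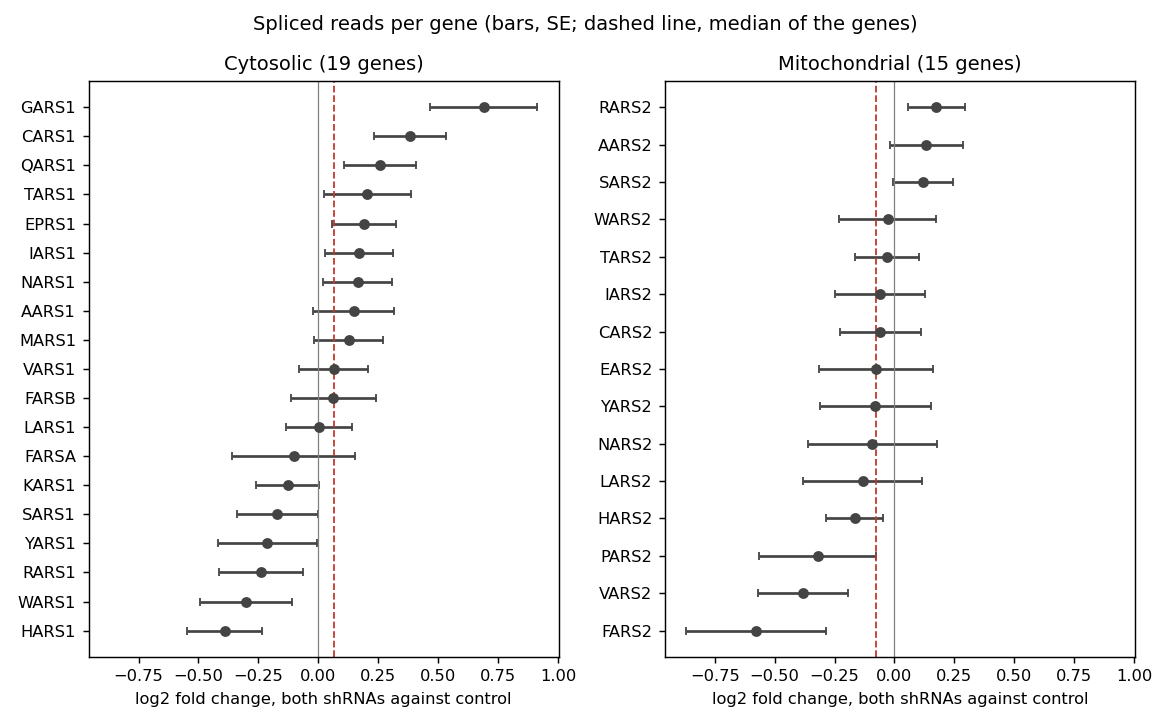
Log2 fold change of summed spliced reads over both shRNAs (horizontal axis) for each synthetase gene, ordered within its compartment; bars are SE and the dashed line is the median of the genes shown. GARS1 (0.69) and HARS1 (-0.39) are the ends of the cytosolic set, FARS2 (-0.58) and RARS2 (0.18) those of the mitochondrial set, and none passed an edgeR adjusted p of 0.05.

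The proteins that work with the synthetases were read from a list of 14 charging partners, which holds the scaffold proteins AIMP1, AIMP2 and EEF1E1 of the cytosolic multi-synthetase complex and the enzymes that build or correct charged transfer RNAs. Of these, 12 were tested and 0 were called by edgeR or DESeq2, with a median log2 fold change of -0.13 (4 positive, 8 negative). Of 22 genes of the amino-acid response, 21 were tested and 0 were called by edgeR, 5 (23.8%) having an unadjusted p under 0.05, beside the 9.50% of all genes, with a median log2 fold change of 0.36 (13 positive, 8 negative). DESeq2 called 2 of them over both shRNAs (DDIT4 and SLC7A11), 4 with sh1 (these, CHAC1 and SESN2) and 3 with sh2 (these and CHAC1), beside 1.43%, 0.941% and 1.46% of all genes. CHAC1, an enzyme that breaks down glutathione, had the highest fold change of the list from very low levels: 0.0756 and 0.0982 CPM in the control, 1.24 and 0.587 with sh1 and 0.503 and 0.693 with sh2 (edgeR log2 fold change 3.06, SE 0.549). DESeq2 gave it no adjusted p over both shRNAs. SLC7A11, the cystine transporter subunit, had 5.35 and 9.72 CPM in the control, 28.1 and 21.7 with sh1 and 34.7 and 30.7 with sh2 (edgeR log2 fold change 1.92, SE 0.287). DDIT4, an inhibitor of mTORC1 signalling, had 14.7 and 7.30 CPM, 72.4 and 28.2, and 85.1 and 29.6 (edgeR log2 fold change 2.28, SE 0.61). SESN2 had 24.7 and 26.5 CPM in the control, 94.1 and 45.6 with sh1 and 34.6 and 41.4 with sh2. ATF4 itself had 61.3 and 68.5 CPM, 102 and 81.3, and 80.9 and 77.1 (edgeR log2 fold change 0.39, SE 0.146). SLC7A11, DDIT4, CHAC1, SESN2 and ATF4 each lay above the control in all 4 knockdown libraries, beside 10.5% of all genes. No other tested gene of the list did.

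The promoters were searched for the C/EBP-ATF element TGATGNAA on either strand, in RefSeq windows of GRCh38 from 250 bases before to 50 after each start. Windows were found for 30 of the 35 genes, and 8 of these (26.7%) held the element, beside 4.46% of all 27305 genes with a window. They were 7 of 16 cytosolic genes (AARS1, CARS1, GARS1, IARS1, MARS1, NARS1 and TARS1) and 1 of 14 mitochondrial genes (YARS2). In GARS1 and TARS1 the element lay only in the window of a start further downstream (chr7:30594628-30594927 and chr5:33440715-33441014). The windows at their gene starts (30594735 and 33440696) held none. In CARS1 the window at the gene start held it, and another window did not. The stretches of GARS1, CARS1, IARS1 and AARS1 are shown on the coding strand, with the element in capitals. GARS1 and CARS1 were taken because they had the highest fold changes of the cytosolic set. IARS1 and AARS1, which also held the element, serve as comparison, with sums that overlapped the control. HARS1 and HARS2 held no such letters in their windows. A match is a description of letters, not evidence of binding.

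GARS1: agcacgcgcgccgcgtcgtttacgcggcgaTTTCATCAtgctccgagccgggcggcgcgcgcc
CARS1: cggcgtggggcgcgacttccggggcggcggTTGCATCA
IARS1: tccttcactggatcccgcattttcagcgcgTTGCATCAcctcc
AARS1: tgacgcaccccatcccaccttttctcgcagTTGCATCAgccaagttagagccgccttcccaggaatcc

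These stretches lie at chr7:30594815-30594877 (plus strand), chr11:3057418-3057455 (minus strand), chr9:92293698-92293740 (minus strand) and chr16:70289656-70289723 (minus strand). The log2 fold changes of the 8 genes with the element ran from GARS1 (0.69) and CARS1 (0.38) over TARS1 (0.20), IARS1 (0.17), NARS1 (0.16), AARS1 (0.15) and MARS1 (0.13) to YARS2 (-0.079), and none was called. Cytosolic genes outside these 8 ran from HARS1 (-0.39) to QARS1 (0.26). Whether the element goes with the fold change was not tested.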

How the data were processed

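The members and gene lists were chosen with earlier results of these data known. Per the file headers, each deposited table held unnormalised counts of boundary reads (at either end of the intron) and spliced reads, with the fraction of the intron covered and a retention percent deposited by the authors as MSI. Recomputing that percent from the counts gave a largest deviation of 2.8e-14. For the aligner and the counting program, names are not given in the sources used here. Submitters' processing notes name hg19, but 95.6% of introns lay inside genes of RefSeq's GRCh38 table, against 62.6% and 62.9% after shifts of 100 kb, so that table gave the names; positions are printed as deposited with starts counted from 1. The spliced count of an intron holds every read whose gap spans it, without strand, so it is raised by longer gaps and by antisense partners. No genome was used, so U12-type introns were not told by sequence.

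Introns averaging at least 20 boundary plus spliced reads were fitted together (edgeR 4.0.16 quasi-likelihood, R 4.3.3): paired boundary and spliced counts, the library as a factor, all 6 libraries in 1 fit with 3 residual degrees of freedom, Benjamini-Hochberg adjustment over all introns. Gene sums took spliced counts of separate introns, chosen by most spliced reads, and left out introns (7 in member genes) whose counts repeated those of another gene's intron within 500000 nt; this exclusion rule had been set with earlier results known. Sums passed filterByExpr and TMM scaling (factors 0.986 to 1.01) before the edgeR test; DESeq2 1.42.0 was an alternative. SE was taken as the log2 fold change over the root of the quasi-F statistic, which is unstable near a fold change of 0. A sum over genes with many introns is larger, so levels between genes were compared per junction. The intron and gene fits were tested on simulated data, whose settings for introns were made easier after a first simulation recovered few changes, so small changes can be missed.

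Named were: ZRSR2, members called in any contrast, the 5 genes per compartment and the 6 introns with the lowest p over both shRNAs, the 3 introns with the lowest p between shRNAs, the 6 introns most retained in the control, and the 4 highest and 4 lowest genes per junction. The strand of 5 genes without a promoter entry was taken from their spliced reads.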

Additional observations from a re-analysis of the deposited data

Results flagged for a closer look

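Intron 11 of GARS1 (chr7:30621501-30622316) was picked out because its response differed between the shRNAs by the test of the difference itself. The log2 change of boundary against spliced reads was higher with sh1 than with sh2 by 1.88 (edgeR adjusted p of 0.008). Retention was 27.9% and 11.9% with sh1 against 6.02% and 5.76% with sh2. Without the sh1 library of experiment 1 the difference was 1.12. The call was also lost with a minimum of 50 reads, with a covered fraction of 0.95 or more and on the smaller boundary doubled. ZRSR2 stood at 10.8 and 10.7 CPM in the same sh1 libraries and at 10.3 and 12.6 CPM in the sh2 libraries, and the part of any difference in knockdown was not tested.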

How the results depend on the processing

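GARS1 intron 11 and HARS1 intron 4 kept their calls over both shRNAs in 11 of 11 alternatives (adjusted p of at most 0.0069 and 0.044), and HARS2 intron 4 in 9 of 11. Over both shRNAs the 5 calls became 2 in a fit restricted to introns with a covered fraction of 0.95 or more, 3 on counts of the smaller boundary doubled, and ranged from 3 to 6 when 1 library was left out. With sh1 the 4 calls became 2, 2 and, with the replicate block, 7, and ranged from 2 to 7. With sh2 the 4 calls became 0, 1 and, with a minimum of 50 reads, 2, and ranged from 1 to 4. Between the shRNAs the 1 call became 0 under these same 3 settings and ranged from 0 to 1. The lower counts with fewer covered introns came from a fit to 39970 introns. The cause of the other changes was not tested. Each count holds calls in either direction. An IARS1 intron, starting at 92274522, was called lower with sh1 under the replicate block (log2 fold change -2.71, edgeR adjusted p of 0.02). For calls with 1 library left out, directions are not given here. With the smaller boundary doubled, GARS1 intron 12 was among the calls over both shRNAs and with sh1. It was the only call with sh2, so none of the 4 sh2 calls was kept there. With 1 library left out, the introns called also differed from the 5 of the main fit. Without the control library of experiment 2, introns starting at 70282785 (AARS1), 92274522 (IARS1) and 32791255 (YARS1) were called over both shRNAs. HARS1 introns 3 and 5 were not called there. The AARS1 intron was also called without the sh1 library of experiment 2, and the IARS1 intron without the sh2 library of experiment 2. No synthetase gene was called in 12 of 12 alternatives in any contrast. The median log2 fold change ranged from -0.013 to 0.17 (cytosolic) and from -0.23 to 0.14 (mitochondrial) when 1 library was left out. The log2 fold change of WARS1 became 0.039 without the control library of experiment 1 and -0.57 without that of experiment 2. The experiments gave only 2 numbers, so the replicate block was an alternative: it gave 7 calls over both shRNAs and 6 with sh2, and same-numbered libraries deviated together with correlations of 0.32 to 0.55 over genes and 0.051 to 0.11 over introns, which share libraries and depth. Depth limits the weakly covered introns, such as HARS1 intron 9, whose log2 fold change of 2.62 rested on 0 to 7 boundary reads per library.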
